A study of Homo sapiens with 12 samples.

Results

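EDA, GRIP1, MMP16, MYO6, PPP2R3A, HMCN1 and SOX21 are 7 of the 53717 genes in the count table of H9 cells that received 1 of 3 oligonucleotides. They were chosen by symbol because their counts differed between the LINE1 sense oligo and the non-targeting oligo, with EDA, GRIP1, MMP16, MYO6 and HMCN1 lower and PPP2R3A and SOX21 higher. All 7 were found in the table and all 7 passed the filter on low counts. H9 is an established human embryonic stem cell line, grown here in RSeT medium, which is sold to hold such cells in a naive-like state. The cells were lipofected with an oligo at 25 nM, each oligo carrying a fluorescein label, and fluorescent cells were sorted at 48 h for poly(A) RNA sequencing. ASO-L1 is an antisense oligo against RNA of LINE1, sO-L1 is the sense oligo for the same element, and ASO-Ctr is an antisense oligo with no specific target. Each group had 4 libraries, numbered 1 to 4, and 12 libraries were sequenced in all. All 3 groups also received Trans-ISRIB at 0.7 uM, the caspase inhibitor emricasan at 5 uM and the ROCK inhibitor Y-27632 at 10 uM, which were taken out after 24 h.

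An antisense oligo can pair with the RNA it is directed against, while a sense oligo has the sequence of that RNA and does not pair with it. A sense oligo is therefore a common control for an antisense one, alongside an oligo with no target. The 7 genes belong to no single pathway. EDA is a ligand, GRIP1 a scaffold, MMP16 a protease at the cell surface, HMCN1 a matrix protein, MYO6 a motor, PPP2R3A a phosphatase subunit and SOX21 a transcription factor.

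The 12 libraries held 22.8 to 55.1 M reads counted in genes, so a gene without a read could still have a level of up to 0.0545 to 0.131 CPM (3 reads). CPM states a gene's count relative to the total of its library. POU5F1, NANOG, SOX2 and LIN28A, markers of pluripotency, summed to 3397 to 3712 CPM in ASO-L1, 3517 to 3929 CPM in sO-L1 and 3568 to 3860 CPM in ASO-Ctr. Of 7 markers of the naive state DPPA3, KLF4, TFCP2L1 and DPPA5 had 14801, 12205, 9258 and 2594 reads over all libraries and KLF17 had 52, and the list summed to 111 to 149 CPM in ASO-L1, 82.0 to 108 CPM in sO-L1 and 75.7 to 95.9 CPM in ASO-Ctr. Trophectoderm and fibroblast markers summed to at most 65.9 and 142 CPM in any library, with CDX2 and LUM at 0 reads in all. TFAP2C, with 22919 reads over all libraries, carried most of the trophectoderm sum. THY1 and COL1A2, with 24343 and 22455 reads, carried most of the fibroblast sum. The 5 primitive endoderm markers summed to 7.89 to 9.43 CPM in ASO-L1, 17.0 to 19.1 CPM in sO-L1 and 15.2 to 16.2 CPM in ASO-Ctr, so that sO-L1 lay above ASO-Ctr without overlap. PDGFRA carried that sum, while SOX17, GATA6, APOA1 and GATA4 had 1, 7, 46 and 58 reads over all libraries. PDGFRA was at log2 0.21 in sO-L1 minus ASO-Ctr (SE 0.08, adjusted p = 0.501, edgeR) and was called higher with those 2 groups alone in the fit (adjusted p = 0.0323, edgeR). That fit called 3.83% of all genes. The part of these markers in the differences of the 7 genes was not tested. Of 37 markers in the 6 lists 19 passed the filter. In sO-L1 minus ASO-Ctr, 0 of these 19 were called in the fit of 3 groups, against 0.29% of all genes. With so low a share over all genes, this count does not tell whether the markers differ. Libraries of the same number deviated together, so the number was kept as a block in each fit. The labels do not say whether replicates were separate cultures, so p-values measure the spread between these libraries, which may be technical. In bulk RNA, fewer cells of a type and less RNA per cell cannot be told apart.

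Levels below are in CPM scaled by TMM, a factor that corrects for library composition, and replicates are given in the order 1 to 4. Differences are on the log2 scale, each with a standard error (SE), and come from 1 edgeR quasi-likelihood fit of the 3 groups with the replicate number as a block. The genes were chosen from sO-L1 minus ASO-Ctr, so their values in it are a description without a test. In that comparison 50 of 17264 genes (0.29%) had a Benjamini-Hochberg adjusted p under 0.05 in edgeR, 38 of them lower (0.22%) and 12 higher (0.0695%). All 7 genes are among these 50 by the way they were picked, at ranks 1 for EDA, 2 for MYO6, 3 for MMP16, 4 for GRIP1, 7 for PPP2R3A, 9 for SOX21 and 29 for HMCN1 when ordered by p. The choice states no threshold. The number of genes called depended on which libraries were in the fit. It was 410 without ASO-L1 replicate 1, 36, 35 and 66 without ASO-L1 replicates 2, 3 and 4, and 21 to 37 without 1 library of sO-L1 or ASO-Ctr. It was 241 without replicate 1 of every group, 31 without replicate 4, and 10 without replicate 2 or without replicate 3. With sO-L1 and ASO-Ctr alone in the fit it was 640 of 16708 genes (3.83%), and all 50 were among those 640.

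Promoters are shown for PPP2R3A and SOX21, the 2 genes that were higher with sO-L1, and for MYO6, one of the 5 that were lower. The 250 bases before each annotated start are from RefSeq on GRCh38.p14, while the authors' counts were made on hg19. Of the 7 genes, 3 matched an entry that is used here. Windows of the other genes are not shown, which does not mean that they lack an entry. The motif counts below therefore speak for these 3 genes only. Capitals mark the GC box GGGCGG, the TATA box TATAAA and CCAAT on either strand.
MYO6, chr6:75748989-75749238, plus strand: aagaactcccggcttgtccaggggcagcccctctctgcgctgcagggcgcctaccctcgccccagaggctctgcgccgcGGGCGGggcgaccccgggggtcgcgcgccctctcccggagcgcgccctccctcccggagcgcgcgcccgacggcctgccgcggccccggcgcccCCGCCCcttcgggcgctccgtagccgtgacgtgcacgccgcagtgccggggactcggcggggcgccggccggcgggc
PPP2R3A, chr3:135965478-135965727, plus strand: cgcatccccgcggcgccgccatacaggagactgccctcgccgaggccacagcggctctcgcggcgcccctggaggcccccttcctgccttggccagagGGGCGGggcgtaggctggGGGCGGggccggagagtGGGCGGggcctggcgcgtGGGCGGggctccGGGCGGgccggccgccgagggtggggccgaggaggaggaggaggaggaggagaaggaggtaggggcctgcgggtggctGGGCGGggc
SOX21, chr13:94712546-94712795, minus strand: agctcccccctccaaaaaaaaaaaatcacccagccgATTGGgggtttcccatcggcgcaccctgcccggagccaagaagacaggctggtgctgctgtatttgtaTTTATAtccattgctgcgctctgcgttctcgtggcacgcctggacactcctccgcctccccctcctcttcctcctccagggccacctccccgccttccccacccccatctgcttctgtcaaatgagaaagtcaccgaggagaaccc
No motif searched for occurs in all 3 windows. PPP2R3A held 6 GC boxes, all on the plus strand, and MYO6 held 2, 1 on each strand, while 42.6% of 35116 promoters of this length held at least 1. SOX21 had no GC box, 1 CCAAT match (32.0% of promoters) and 1 TATAAA match (10.7%), both on the strand opposite to the gene. The windows of MYO6 and PPP2R3A were 82.0% and 79.6% G or C, with 41 and 27 CpG, and that of SOX21 was 58.8% with 11, against medians of 58% and 11 over all promoters. A second annotated start of PPP2R3A lies in a window of 34.4% G or C with 2 CpG, 0 GC boxes and 2 TATAAA matches. That window is not printed, and gene counts do not show which start was used. In the SOX21 window, counted from 1 at the 5′ end as printed, the antisense RNA gene SOX21-AS1 starts at base 80 and runs away from SOX21. The TATAAA match, at bases 105 to 110, lies before that start on the strand of SOX21-AS1.

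EDA encodes ectodysplasin A, a ligand of the tumour necrosis factor family that acts through the receptor EDAR and NF-kB in forming hair, teeth and glands. Its level was 4.54, 7.61, 6.63 and 6.26 CPM in ASO-L1, 4.30, 5.11, 5.12 and 5.47 CPM in sO-L1, and 11.6, 12.7, 12.9 and 12.6 CPM in ASO-Ctr. Every library of both LINE1 oligos was below every control library, and the 2 oligos overlapped. Fitted, EDA was 2.495-fold lower in sO-L1 than in ASO-Ctr (log2 -1.32, SE 0.10) and 1.99-fold lower in ASO-L1 than in ASO-Ctr (log2 -0.99, SE 0.10). ASO-L1 exceeded sO-L1 in 4 of 4 replicate numbers, by 0.33 (SE 0.10) on the log2 scale. EDAR had at most 0.137 CPM in any library, while EDA2R, a second receptor of the family that binds another splice form, averaged 15.1 ± 4.64 CPM in ASO-L1, 6.29 ± 0.971 CPM in sO-L1 and 6.54 ± 1.22 CPM in ASO-Ctr (SD, n = 4 each).

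GRIP1 encodes a scaffold of PDZ domains that binds AMPA-type glutamate receptors in neurons and helps place FRAS1 and its partners at basement membranes. It was at 5.80, 7.03, 6.46 and 6.29 CPM in ASO-L1, 7.16, 6.39, 5.26 and 5.34 CPM in sO-L1, and 11.8, 12.3, 12.03 and 12.3 CPM in ASO-Ctr. The controls spanned a narrow range that neither LINE1 oligo reached, and the oligos overlapped. GRIP1 was 2.01-fold lower in sO-L1 than in ASO-Ctr (log2 -1.005, SE 0.10) and 1.89-fold lower in ASO-L1 (log2 -0.92, SE 0.10). ASO-L1 and sO-L1 differed by 0.09 (SE 0.10) on the log2 scale, with ASO-L1 higher in 3 of 4 numbers, and leaving libraries out moved this difference between 0.02 and 0.21. Without 1 library it was 0.19 (sO-L1 replicate 1), 0.16 (ASO-L1 replicate 1), 0.05 (ASO-L1 replicate 2 or 3), 0.04 (sO-L1 replicate 4) and 0.04 (sO-L1 replicate 3). HELB shares exon sequence with GRIP1 on the opposite strand in the GENCODE 29 annotation, and the sources used here do not give whether counting used strand. MMP16 and PPP2R3A likewise share exon sequence with the antisense genes AC090578.1 and AC072039.2. Neither of these was found by that name among the genes past the filter. HELB was at log2 -0.19 (SE 0.12) in sO-L1 minus ASO-Ctr and was not called (adjusted p = 0.834, edgeR).

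MMP16 encodes a metalloproteinase anchored in the plasma membrane that can activate pro-MMP2. It was at 11.4, 9.92, 8.14 and 8.17 CPM in ASO-L1, 8.05, 8.35, 6.44 and 4.91 CPM in sO-L1, and 14.6, 15.2, 11.4 and 11.6 CPM in ASO-Ctr. Replicates 1 and 2 lay above replicates 3 and 4 in every group, and in every number sO-L1 was lowest and ASO-Ctr highest. Across numbers the sO-L1 and ASO-L1 ranges met, while sO-L1 did not reach ASO-Ctr. MMP16 was 1.91-fold lower in sO-L1 than in ASO-Ctr (log2 -0.93, SE 0.09), and 1.41-fold lower in ASO-L1 (log2 -0.50, SE 0.09).

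HMCN1 encodes hemicentin-1, a very large extracellular matrix protein built of immunoglobulin and EGF modules. It was the rarest of the 7, with 13 to 85 reads per library and 486 in all, so its values carry the most counting error. HMCN1 was at 1.23, 2.06, 0.894 and 0.927 CPM in ASO-L1, 0.544, 0.605, 0.382 and 0.851 CPM in sO-L1, and 1.76, 1.599, 1.73 and 1.56 CPM in ASO-Ctr. The sO-L1 libraries lay below all others, though sO-L1 replicate 4 (0.851 CPM) came close to ASO-L1 replicates 3 and 4 (0.894 and 0.927 CPM). Within number 4 the gap between sO-L1 and ASO-L1 was 0.12 on the log2 scale. Fitted, HMCN1 was 2.85-fold lower in sO-L1 than in ASO-Ctr (log2 -1.51, SE 0.27). ASO-L1 minus ASO-Ctr was log2 -0.39 (SE 0.24), negative in 3 of 4 numbers, and ASO-L1 replicate 2 was the highest of all 12 libraries. Leaving libraries out moved this value between -0.74 and -0.20: it was -0.73 without ASO-L1 replicate 2, -0.61 without ASO-Ctr replicate 2, -0.21 without ASO-L1 replicate 4 and -0.20 without ASO-Ctr replicate 3.

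MYO6 encodes myosin VI, the motor that walks towards the minus end of actin filaments and serves endocytosis and the hair cells of the ear. It was the most abundant by reads, with 1977 to 4903 per library. MYO6 was at 102, 103, 91.9 and 89.5 CPM in ASO-L1, 62.3, 78.2, 62.4 and 64.7 CPM in sO-L1, and 95.6, 117, 105 and 102 CPM in ASO-Ctr. Here sO-L1 stood apart from both other groups, and ASO-L1 overlapped with ASO-Ctr. MYO6 was 1.57-fold lower in sO-L1 than in ASO-Ctr (log2 -0.65, SE 0.05). ASO-L1 minus sO-L1 was log2 0.53 (SE 0.05), positive in 4 of 4 numbers, and ASO-L1 minus ASO-Ctr was log2 -0.12 (SE 0.05), negative in 3 of 4, and -0.18 without ASO-L1 replicate 1.

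PPP2R3A encodes a regulatory B″ subunit of protein phosphatase 2A, the type that binds calcium and directs the enzyme to its substrates. It was at 24.7, 25.7, 25.3 and 21.7 CPM in ASO-L1, 29.4, 33.1, 30.1 and 31.3 CPM in sO-L1, and 19.1, 24.0, 18.3 and 18.95 CPM in ASO-Ctr. All sO-L1 libraries were above all others, and ASO-L1 overlapped with ASO-Ctr through replicate 2 of ASO-Ctr. PPP2R3A was 1.54-fold higher in sO-L1 than in ASO-Ctr (log2 0.62, SE 0.07). It was 1.21-fold higher in ASO-L1 than in ASO-Ctr (log2 0.28, SE 0.07), in 4 of 4 numbers.

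SOX21 encodes a transcription factor of the SOXB group, known as a repressor in neural progenitors and, in the mouse, as a regulator of cell fate in the early embryo. It was at 6.52, 9.14, 24.5 and 19.2 CPM in ASO-L1, 7.28, 11.4, 32.3 and 25.5 CPM in sO-L1, and 3.68, 6.68, 16.7 and 18.1 CPM in ASO-Ctr. The 3 groups overlapped, since replicates 3 and 4 held on average 2.80-fold more SOX21 than replicates 1 and 2 in ASO-L1, 3.13-fold more in sO-L1 and 3.47-fold more in ASO-Ctr. Within each number the order was the same, with sO-L1 highest and ASO-Ctr lowest. Within numbers sO-L1 minus ASO-Ctr was 0.97, 0.77, 0.95 and 0.49 on the log2 scale, and the fit gave a 1.70-fold higher level (log2 0.77, SE 0.09). ASO-L1 minus ASO-Ctr was log2 0.43 (SE 0.09). Of 8 neuroectoderm markers PAX6 alone passed the filter, with 849 reads over all libraries, and SOX1 had 22. The list summed to 3.04 to 5.30 CPM in ASO-L1, 1.42 to 2.49 CPM in sO-L1 and 1.55 to 2.68 CPM in ASO-Ctr. The sums of sO-L1 and ASO-Ctr overlapped, and their part in the SOX21 values was not tested.

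**Figure D1:**
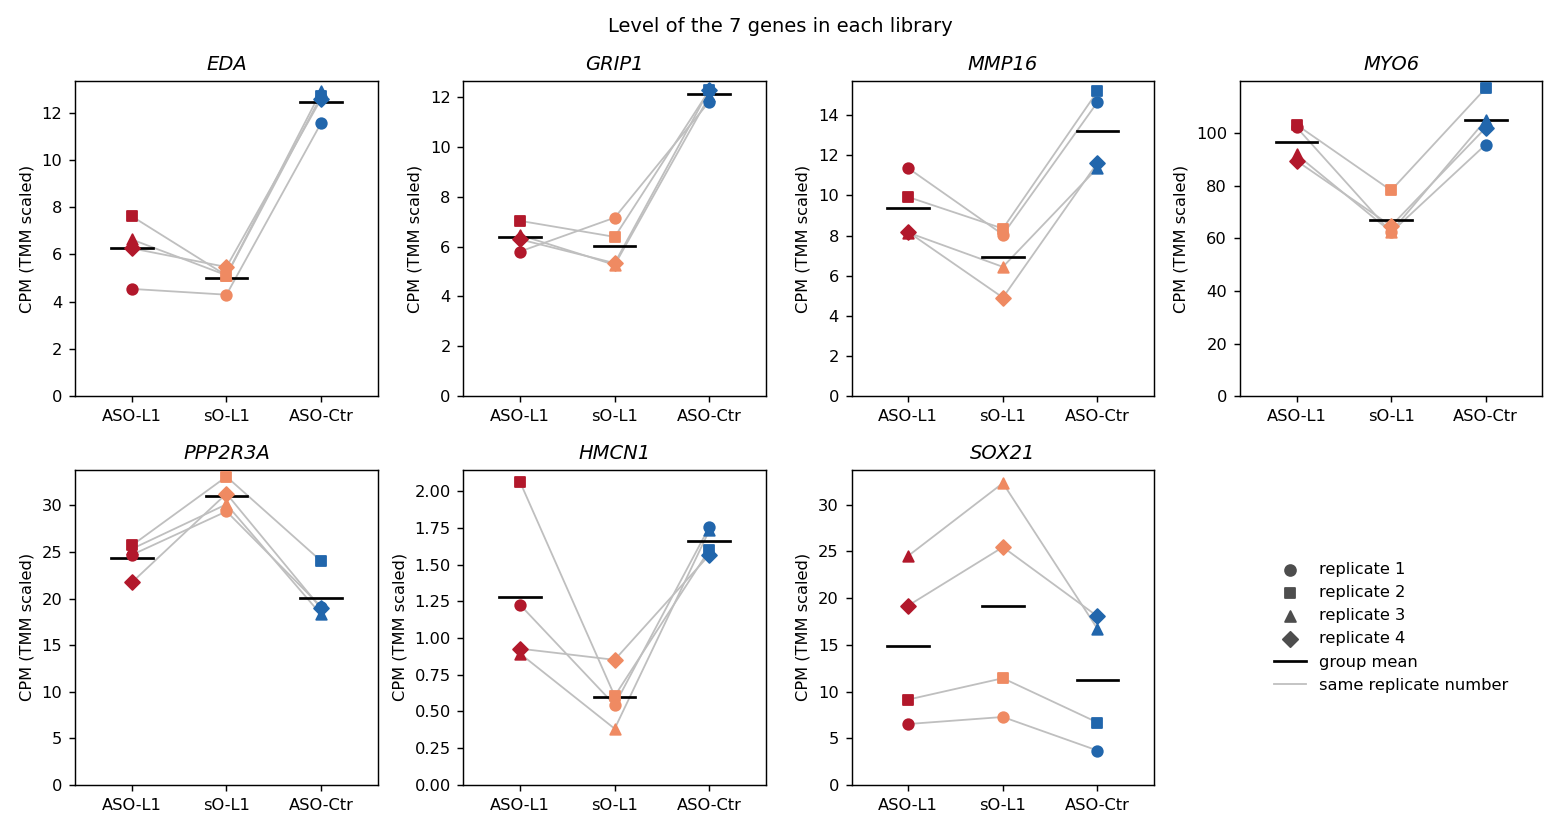
Level of each of the 7 genes in CPM (TMM scaled, linear axis from 0) in the 4 libraries of ASO-L1, sO-L1 and ASO-Ctr. Points are libraries, marker shapes and grey lines join replicate numbers, and black bars are group means. EDA and GRIP1 lie below ASO-Ctr with both LINE1 oligos, and EDA is lower with sO-L1 than with ASO-L1 in every number. MYO6 is low with sO-L1 alone, and SOX21 shows the gap between replicates 1, 2 and replicates 3, 4.

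By group means the antisense oligo lay between the sense oligo and the control for all 7 genes. Taken number by number it lay between them in 4 of 4 numbers for EDA, MMP16, PPP2R3A and SOX21, and in 3 of 4 for GRIP1, MYO6 and HMCN1. Because the genes were picked for the distance between sO-L1 and ASO-Ctr, another group will tend to fall inside it, and this order is a description. The comparisons ASO-L1 minus ASO-Ctr and ASO-L1 minus sO-L1 share libraries with the comparison that chose the genes, and for that reason only their sizes are given. As a share of the difference between sO-L1 and ASO-Ctr on the log2 scale, the difference between ASO-L1 and ASO-Ctr was 91.3% for GRIP1, 75.0% for EDA, 55.8% for SOX21, 53.1% for MMP16, 44.4% for PPP2R3A, 25.6% for HMCN1 and 18.0% for MYO6. The shares of HMCN1 and MYO6 rest on differences that moved by over 1.5 times when 1 library was left out.

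One comparison does not use the distance that chose the genes: ASO-L1 against the midpoint of sO-L1 and ASO-Ctr, each weighted 0.5. It asks whether the antisense oligo stands nearer to the sense oligo or to the control. In it, EDA and GRIP1 were below the midpoint, towards sO-L1, and MYO6 was above it, towards ASO-Ctr. EDA lay below by 0.33 on the log2 scale (log2 -0.33, SE 0.09, adjusted p = 0.00492, edgeR), in 4 of 4 numbers. GRIP1 lay below with log2 -0.42 (SE 0.09, adjusted p = 0.000916, edgeR), also in 4 of 4. MYO6 lay above with log2 0.21 (SE 0.05, adjusted p = 0.00139, edgeR), again in 4 of 4. For the other 4 genes no side was called: HMCN1 was at log2 0.37 (SE 0.22, adjusted p = 0.181), MMP16 at -0.03 (SE 0.08, adjusted p = 0.780), PPP2R3A at -0.04 (SE 0.06, adjusted p = 0.650) and SOX21 at 0.04 (SE 0.08, adjusted p = 0.672), all by edgeR. The HMCN1 value depended on which libraries were used: it was log2 0.01 without ASO-L1 replicate 2 (adjusted p = 0.970), 0.03 without replicate 2 (adjusted p = 0.945) and 0.59 without replicate 4, where it was called above the midpoint (adjusted p = 0.0479, edgeR). Calls were common in this comparison, at 8632 of 17264 genes (50%), 4419 lower (25.6%) and 4213 higher (24.4%). The 3 of 7 called are thus no larger a share than that of all genes. The estimate of each gene's spread is the one used in choosing the genes, so these p-values may be too small.

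The authors' deposited table of ASO-L1 against sO-L1 gives the same signs as the fit here for all 7 genes. For HMCN1 the authors' deposited table has log2 1.13, for MYO6 0.53 and for MMP16 0.42. For EDA the authors' deposited table has 0.32 and for GRIP1 0.09. For PPP2R3A it has -0.35 and for SOX21 -0.36. These come from the same libraries, and the comparison shares sO-L1 with the choice of the genes, so only sizes are given.

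**Figure D2:**
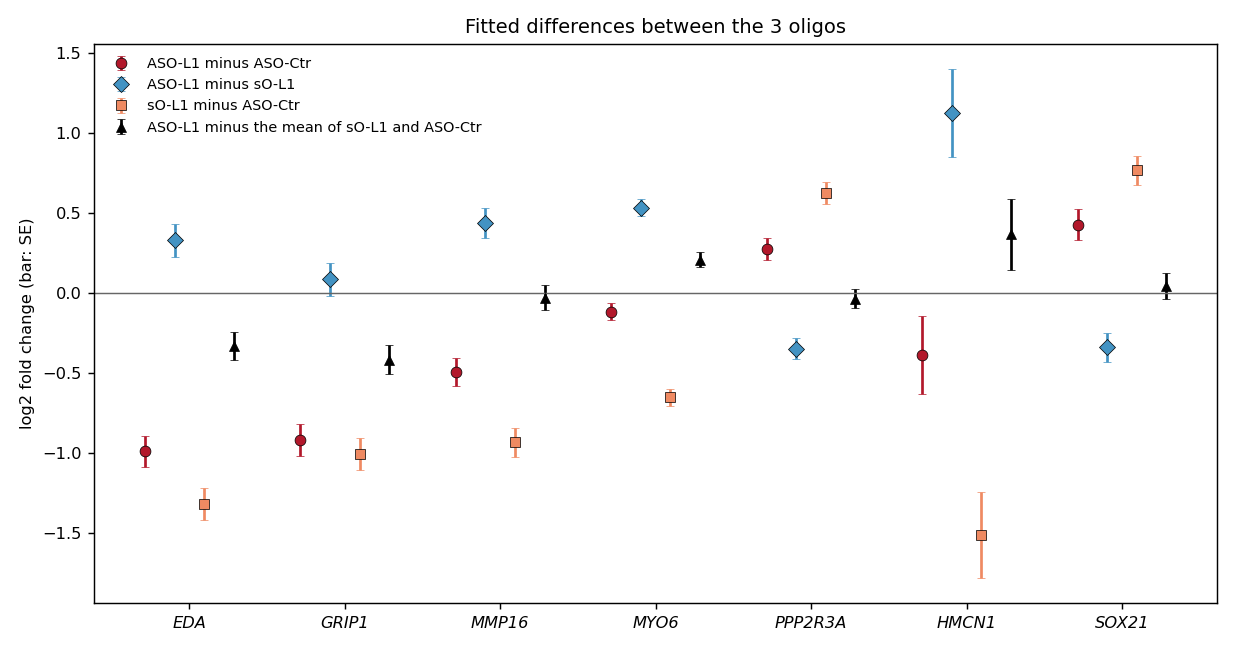
Fitted log2 fold changes of the 7 genes (y axis, bars are SE from edgeR) for ASO-L1 minus ASO-Ctr, ASO-L1 minus sO-L1, sO-L1 minus ASO-Ctr and ASO-L1 minus the mean of the other 2 groups. The black triangles lie below 0 for EDA and GRIP1 (-0.33 and -0.42) and above 0 for MYO6 (0.21), and those of MMP16, PPP2R3A and SOX21 lie within 0.05 of 0.

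What 6 of the 7 genes share outside their levels is length. In the GENCODE 29 annotation (GRCh38) GRIP1 spans 722 kb, HMCN1 456 kb, EDA 423 kb, MMP16 296 kb, PPP2R3A 182 kb and MYO6 170 kb, at or above percentile 89.7 of the genes tested. SOX21 spans 2.78 kb, all of it exon, at percentile 6.92. In the 6 long genes exons make up 0.910 to 5.16% of the span. A span was found for 14512 of the 17264 genes (84.1%), with a median of 31.0 kb, and 2904 of these (20.01%) reach 100 kb. Among the other genes called lower in sO-L1 minus ASO-Ctr, 24 of 31 with a span reach 100 kb (77.4%, median 220 kb), while among the other genes called higher 2 of 10 do (median 37.6 kb). In the fit of sO-L1 and ASO-Ctr alone, chosen after the data were seen, 191 of 347 other genes called lower reach 100 kb (55.0%), and 40 of 234 called higher (17.1%). Most long genes differed little: the 1192 other genes of at least 200 kb had a median log2 of -0.03 in sO-L1 minus ASO-Ctr, with 59.7% below 0, 17 called lower and 1 higher. The 3241 genes under 10 kb had a median of 0.00, with 48.2% below 0, none called lower and 3 higher. Against the midpoint of the other 2 groups, ASO-L1 was lower at the median in the genes of at least 200 kb (log2 -0.35) and higher in those under 10 kb (0.07). EDA and GRIP1, at -0.33 and -0.42, are near the median of their length class in that comparison, and HMCN1 and MMP16, at 0.37 and -0.03, are above it.

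**Figure D3:**
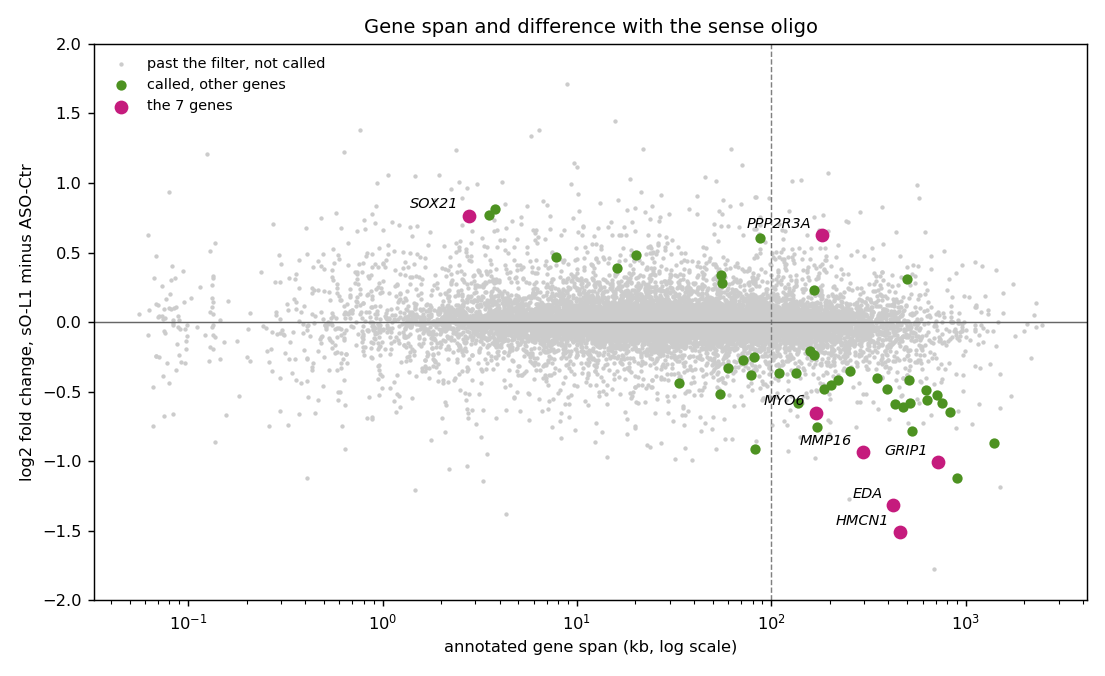
Annotated gene span in kb (x axis, log scale) against the log2 fold change of sO-L1 minus ASO-Ctr (y axis) for the 14512 genes with a span. Pink points are the 7 genes, green points the other genes called, grey points all others, and the dashed line is 100 kb; the called genes below 0 lie mostly to the right of the line, with SOX21 far to the left among those above 0.

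The nearest gene past the filter on the chromosome was taken on each side of the 7, by gene order in RefSeq on GRCh38.p14, which gave 14 genes with a median log2 of -0.02 in sO-L1 minus ASO-Ctr. Of these 14 neighbours 1 was called (7.14%, against 0.29% of all genes), SOX21-AS1, the antisense RNA gene whose start lies 170 bases from that of SOX21. SOX21-AS1 was at 3.35, 4.27, 7.42 and 6.98 CPM in ASO-L1, 2.55, 3.595, 8.47 and 7.53 CPM in sO-L1, and 1.24, 2.34, 4.09 and 5.10 CPM in ASO-Ctr. Like SOX21 it was higher in replicates 3 and 4 of every group and lowest in ASO-Ctr in every number. It was 1.71-fold higher in sO-L1 than in ASO-Ctr (log2 0.77, SE 0.13, adjusted p = 0.0164, edgeR), in 4 of 4 numbers. This call was lost in 8 of 22 alternative fits, among them the fit with no replicate block (adjusted p = 0.9998), and the adjusted p ranged over all fits from 1.09e-06 to 0.9998. The annotated genes do not overlap. EPHB1, an ephrin receptor and the nearest such gene before PPP2R3A, averaged 1.67 ± 0.197 CPM in ASO-L1, 1.43 ± 0.285 CPM in sO-L1 and 2.30 ± 0.113 CPM in ASO-Ctr (SD, n = 4 each). It was at log2 -0.67 (SE 0.17), opposite in sign to PPP2R3A, and was not called (adjusted p = 0.168, edgeR), but was with sO-L1 and ASO-Ctr alone in the fit (adjusted p = 0.0110). The other 12 neighbours were not called, with log2 values from -0.19 for HELB to 0.06 for CPNE3.

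**Figure D4:**
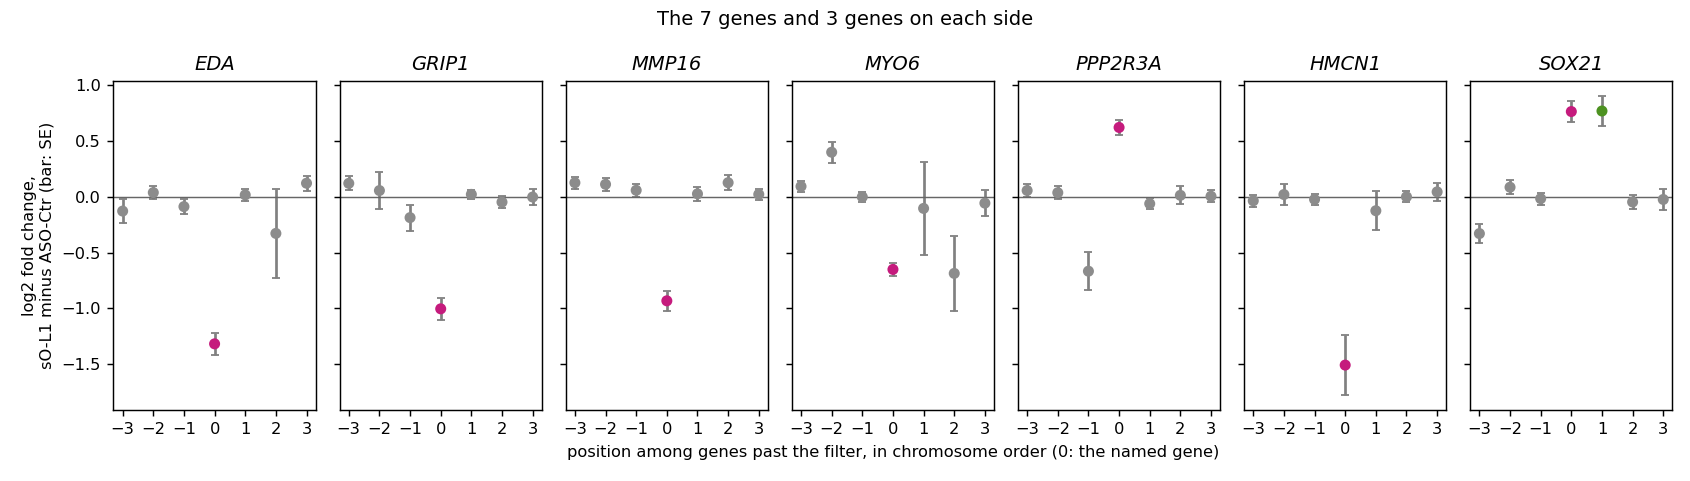
Log2 fold change of sO-L1 minus ASO-Ctr (y axis, bars are SE from edgeR) for each of the 7 genes at position 0 and the 3 genes past the filter on each side in chromosome order (x axis). Pink marks the named gene, green a called neighbour and grey the others; SOX21-AS1, at 0.77 beside SOX21, is the 1 called of the 42 neighbours drawn (2.38%, against 0.29% of all genes).

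Families and partners of the 7 genes were looked at from lists of relatives. The 7 lists hold 159 genes, of which 157 were in the table and 140 passed the filter. In sO-L1 minus ASO-Ctr 0 of the 140 were called by edgeR against 0.29% of all genes, 18 had an unadjusted p under 0.05 (12.9%, against 7.14% of all genes), and the median log2 was -0.01 (0.00 over all genes). DESeq2 called 1, HSPG2, at log2 -0.30 (adjusted p = 0.0127). With sO-L1 and ASO-Ctr alone in the fit 12 of 139 were called (8.63%, against 3.83% of all genes), of which 3 were higher, and these 12 are named here after their values were seen.

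Around EDA, 19 of 24 listed genes of its signalling route could be tested, with a median log2 of -0.01. NFKB2, a subunit of NF-kB, was at log2 0.20 (SE 0.07, adjusted p = 0.445) and was called higher in the fit of 2 groups (adjusted p = 0.0104). Of 22 testable partners of GRIP1 13 were below 0, with a median of -0.04. FRAS1, a basement membrane protein that GRIP1 helps to localise, averaged 62.4 ± 13.5 CPM in ASO-L1, 111 ± 12.2 CPM in sO-L1 and 126 ± 15.2 CPM in ASO-Ctr (SD, n = 4 each). FRAS1 was at log2 -0.18 in sO-L1 minus ASO-Ctr (SE 0.08, adjusted p = 0.631) and called lower in the fit of 2 groups (adjusted p = 0.000208), as were the ephrin EFNB2 and the ephrin receptor EPHB2 (adjusted p = 0.0186 and 0.0199, edgeR). Among the 14 proteases and inhibitors listed with MMP16 the median was 0.01, and MMP9 was called higher in the fit of 2 groups (log2 0.19, adjusted p = 0.0423).

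The 18 testable matrix genes listed with HMCN1 had the lowest median, -0.09, with 13 below 0. HSPG2, which encodes the basement membrane proteoglycan perlecan, averaged 19.03 ± 2.30 CPM in ASO-L1, 23.7 ± 4.35 CPM in sO-L1 and 29.2 ± 4.37 CPM in ASO-Ctr (SD, n = 4 each). HSPG2 was at log2 -0.30 in sO-L1 minus ASO-Ctr (SE 0.07, adjusted p = 0.0681) and was called lower in the fit of 2 groups (adjusted p = 2.22e-05, edgeR), with the fibrillin genes FBN1 and FBN2 (adjusted p = 0.0472 and 0.0211). Of 30 myosins and MYO6 adaptors 16 were above 0, at a median of 0.01, and the fit of 2 groups called MYO5B higher (log2 0.18) and MYO1D lower (log2 -0.21). Of 22 subunits and regulators of protein phosphatase 2A 14 were above 0, at a median of 0.01, and PPP2R2B, a regulatory subunit of another class, was called lower there (log2 -0.21, adjusted p = 0.00190, edgeR). Of 15 SOX genes 9 were below 0. SOX2, the pluripotency factor of the related SOXB1 group, was at log2 0.04 (SE 0.04, adjusted p = 0.942), and SOX3, of the same group, was at log2 -0.60 (SE 0.17, adjusted p = 0.239), opposite in sign to SOX21. SOX3 averaged 3.25 ± 1.21 CPM in ASO-L1, 1.38 ± 0.384 CPM in sO-L1 and 2.09 ± 0.494 CPM in ASO-Ctr (SD, n = 4 each), and was called lower in sO-L1 in the fit of 2 groups (adjusted p = 0.0378, edgeR).

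Against the midpoint of the other 2 groups, 85 of the 140 relatives were called in ASO-L1 (60.7%, against 50% of all genes). The matrix list had 2 higher and 10 lower of 18, the myosin list 3 higher and 11 lower of 30, and the EDA list 10 higher and 2 lower of 19. The list of MMP16 had 6 higher and 6 lower of 14, the phosphatase list 6 and 6 of 22 and the SOX list 4 and 4 of 15, where over all genes 24.4% were called higher and 25.6% lower. In the EDA list EDA2R was 1.21 above the midpoint on the log2 scale (SE 0.08, adjusted p = 7.29e-09, edgeR), while EDA itself was below it. In the GRIP1 list, with 6 higher and 9 lower of 22, FRAS1 was at log2 -0.93 (SE 0.07, adjusted p = 2.03e-08, edgeR), on the same side as GRIP1. EDA2R and FRAS1 had the smallest p of their lists in this comparison, so they do not stand for the lists.

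The genes whose 12 values most resembled those of the 7 were looked for among 12544 genes whose average log2 CPM was 1 or more, each value centred on its replicate number. Likeness is Pearson's r over 12 libraries, given as a description, since the 3 groups repeat in each number and the 7 were picked for one of the steps. EDA was most like SYN2 (r = 0.966), BBS9 (0.946) and TNIK (0.932). GRIP1 was most like ZNF638 (r = 0.968), FIG4 (0.962) and HECTD2 (0.957). MMP16 was most like LINC00342 (r = 0.972), RAB8B (0.966) and SNAP23 (0.959). The fitted differences of these genes from ASO-Ctr were negative with both LINE1 oligos and smaller than those of the gene they resemble. BBS9, for one, averaged 10.7 ± 1.68 CPM in ASO-L1, 9.75 ± 1.26 CPM in sO-L1 and 14.8 ± 1.30 CPM in ASO-Ctr (SD, n = 4 each). For MYO6 the closest were HAS3 (r = 0.978), EPS15 (0.978) and GAB1 (0.945), and GAB1 averaged 32.4 ± 1.34 CPM in ASO-L1, 25.9 ± 1.80 CPM in sO-L1 and 38.9 ± 1.38 CPM in ASO-Ctr (SD, n = 4 each). For HMCN1 they were MKNK2 (r = 0.948), SERPINE3 (0.910) and FMNL3 (0.901). FZD10 was among the 3 closest to both genes that were higher, at r = 0.895 with PPP2R3A and 0.944 with SOX21. SENP2 (r = 0.943) and DDIT4L (0.920) were the others for PPP2R3A, and EPB41L5 (0.947) and GRB14 (0.910) for SOX21. Among the 7 themselves the closest pair was EDA and GRIP1 (r = 0.962), and the least close of the 5 lower genes were GRIP1 and MYO6 (r = 0.650).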

How the data were processed

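Poly(A) RNA of 80 to 130 ng per sample was sequenced with a directional kit, per the labels' protocols. The authors deposited raw counts per gene, with duplicates removed per the file name, which does not say what kind of duplicate. If duplicate reads were meant, their removal lowers abundant genes more than rare ones. The submitters' processing notes name hg19, featureCounts (Subread 1.5.0), TopHat2 2.0.13 and Trim Galore 0.4.0; the gene annotation and strand setting are not given in the sources used here. The authors' deposited log2 values are normalized and batch corrected, per the file name, and served as an alternative. The authors' deposited comparison holds log2 fold changes with raw and adjusted p-values per gene, and 2 scores. Only its log2 fold changes were used here.

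Counts were fitted in R 4.3.3 with edgeR 4.0.16 (TMM; filterByExpr, minimum count 10; two-sided quasi-likelihood tests; Benjamini-Hochberg adjustment over 17264 genes; threshold 0.05), after a check on simulated data. Log2 CPM used a prior count of 2. The replicate number was a block, since its 12 pairs across groups correlated at r = 0.216 to 0.725 in the 10549 genes averaging 200 counts or more, above the limit of 0.1, and the authors' table is batch corrected. Replicates differed by more than counting error (chi-squared 3.00 to 29.0 per gene), and 0 of 18 pairs were identical. Alternatives used DESeq2 1.42.0 and limma 3.58.1. The limit of 3 reads for a gene without reads covers counting error only.

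The members, lists and comparisons were chosen with earlier results of these data known. Named are the 7 genes, the nearest neighbour past the filter on each side, the 3 most similar genes of each, family genes called with sO-L1 against ASO-Ctr, and those said to be chosen later, among them EDA2R, EDAR, FRAS1, HSPG2, SOX2 and SOX3. Gene spans and order are from GENCODE 29 and RefSeq on GRCh38, matched by symbol (84.1% and 87.3% of genes tested), and no coordinate was converted. Reads of LINE1 itself were not analysed here.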

Additional observations from a re-analysis of the deposited data

Results flagged for a closer look

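In 21 groups of 4 libraries, 7 genes by 3 oligos, 2 libraries lay far from the other 3 of their group, where chance gives about 1 in 20. For MYO6 in sO-L1, replicate 2 was at 78.2 CPM, and the median of the group was 63.6 CPM. For PPP2R3A in ASO-Ctr, replicate 2 was at 24.0 CPM, and the median of the group was 19.04 CPM. Both are of replicate 2, whose libraries were also the highest of their group for MYO6 in ASO-L1 and ASO-Ctr and for PPP2R3A in ASO-L1 and sO-L1. Without replicate 2, MYO6 and PPP2R3A kept the sign of their difference between sO-L1 and ASO-Ctr. Both were chosen for that difference, so this is a description.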

How the results depend on the processing

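The differences of the 7 genes, the call of SOX21-AS1, the counts of genes called and the count of relatives called in sO-L1 minus ASO-Ctr were recomputed under up to 22 alternatives; the spans, neighbours and single relatives were recomputed only where a fit of 2 groups or DESeq2 is named, and the likeness values were not. For the 7 genes sO-L1 minus ASO-Ctr had the same sign in 154 of 154 recomputed values, from -1.37 to -1.25 for EDA, -1.11 to -0.94 for GRIP1, -0.98 to -0.85 for MMP16, -0.69 to -0.62 for MYO6, -1.79 to -1.32 for HMCN1, 0.58 to 0.69 for PPP2R3A and 0.70 to 0.90 for SOX21. The genes were chosen for this difference and the fits reuse the same libraries, so the kept sign is a description and no test. With no replicate block, and without replicate 3, HMCN1 and SOX21 were not among the genes called, and HMCN1 was also not called without replicate 2 and in 6 fits without 1 library of sO-L1 or ASO-Ctr. The number of genes called in that comparison, 50, was 17 with no replicate block, 95 with DESeq2, 141 with no filter on low counts, 137 with limma on the authors' log2 values, 640 with the 2 groups alone, and 10 to 410 when a replicate number or library was left out. The low end came without replicate 2 or without replicate 3, and 241 were called without replicate 1; the cause was not tested. Of the relatives, 0 were called in the main fit, 1 with DESeq2, 1 with no filter, 1 with limma, 12 with the 2 groups alone and 0 to 6 with a library or number left out. Against the midpoint, the calls of EDA (adjusted p = 0.00175 to 0.0326), GRIP1 (5.54e-05 to 0.00842) and MYO6 (9.36e-05 to 0.0260) held in 21 of 21 alternatives. The uncalled values turned sign in some fits that left libraries out, from -0.0733 to 0.0351 for MMP16, -0.0870 to 0.0137 for PPP2R3A and -0.00950 to 0.143 for SOX21, while that of HMCN1 stayed above 0, from 0.0126 to 0.587. The counts of ASO-L1 against the midpoint, ASO-Ctr and sO-L1 stayed within 1.5 times. Depth limits HMCN1 most.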
